A study of Mus musculus with 36 samples.

Results

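The genes described here encode the scaffold of the extracellular matrix and the enzymes that build and cut it: collagens, laminins, matrix metalloproteinases and other matrix proteases, their tissue inhibitors, lysyl oxidases, and the secreted proteins decorin, biglycan, lumican, fibronectin and osteonectin. They were taken from the array's annotation by gene symbol, with no measured value used, and 90 probe sets with a single symbol met the naming rule. With the brightest probe set kept for each gene these gave 64 of the 8251 genes on the array. Of the 64, 48 reached a scaled signal of 100 on at least 6 of the 36 arrays and were tested, against 6793 genes tested in all.

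The study compared wild-type mice with mice transgenic for alpha tropomyosin slow, under a series title that names a mouse model of nemaline myopathy, a muscle disease in which protein rods form in the fibres. Diaphragm and 4 limb muscles (tibialis anterior, gastrocnemius, plantaris and extensor digitorum longus) were snap frozen at 7 or 10 months of age, and RNA pooled from several mice was hybridized to each Affymetrix array. For 3 muscles (diaphragm, tibialis anterior and gastrocnemius) each genotype had 4 arrays, 2 at each age. For plantaris and extensor digitorum longus it had 3, of which 1 was from 10 months, so that each genotype had 18 arrays, 14 of them from limb. The labels give neither the promoter and form of the transgene nor the strain.

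In skeletal muscle the matrix forms nested sheaths around the fibres. A basement membrane of type IV collagen and laminin lies directly on each fibre. Outside it, fibrils of collagens I, III and V carry force to the tendon, and collagen VI, decorin, biglycan and fibronectin link the layers. Metalloproteinases cut these proteins, tissue inhibitors of metalloproteinases (TIMPs) block them, and lysyl oxidase crosslinks the fibrils. Fibroblasts make most of the fibrillar matrix.

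Arrays were scaled to a common level, with 57.4 to 68.4% of probe sets at or above 100. Titles of 16 arrays carry the suffix 2, and these are called replicate 2 here. The other 20 arrays have no such suffix and are called replicate 1. Arrays of replicate 1 were deposited with a filled scanner record and those of replicate 2 with an empty one. They were therefore treated as 2 sets of arrays, and values within each are given below. The 3' to 5' ratio of Gapdh, a measure of RNA integrity, was 3.32 on 1 wild-type gastrocnemius array and 3.69 on 1 wild-type plantaris array, and at most 1.80 on the rest. The label of the transgenic extensor digitorum longus array at 10 months states that its image file was only partly recovered. Tpm3, the gene that encodes alpha tropomyosin slow, had 1 tested probe set, at 831 to 24281 (median 11625) on wild-type and 1607 to 30550 (median 14160) on transgenic arrays, with a log2 difference of 0.36 ± 0.18 (adjusted p = 0.29). Whether that probe set detects the transgene's RNA could not be checked, since its form is unknown here.

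Promoter sequence is shown for the members whose diaphragm signal stood apart in either genotype and that have a window in the reference table, and for the head-to-head pair Col4a1 and Col4a2, whose signals are compared over arrays further on. The windows run from 250 bases before to 50 bases after an annotated gene start (RefSeq, GRCm38.p6), 5′ to 3′ on the strand of the gene. Capitals mark the 4 motifs searched, each on both strands. The TATA box was searched as TATAAA, the CCAAT box by its own letters, the GC box as GGGCGG and the AP-1 motif as TGANTCA. The windows are Bgn at chrX:73483351-73483650 (plus strand), Col15a1 at chr4:47207762-47208061 (plus), Col18a1 at chr10:77166481-77166780 and chr10:77113656-77113955 (minus, 2 annotated starts), Col4a1 at chr8:11312777-11313076 (minus) and Col4a2 at chr8:11312555-11312854 (plus).
Bgn: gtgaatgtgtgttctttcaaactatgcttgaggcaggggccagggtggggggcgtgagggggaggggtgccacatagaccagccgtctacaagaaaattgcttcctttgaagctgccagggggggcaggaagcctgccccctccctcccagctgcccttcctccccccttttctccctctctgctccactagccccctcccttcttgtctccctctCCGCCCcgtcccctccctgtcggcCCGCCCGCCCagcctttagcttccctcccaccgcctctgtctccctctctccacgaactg
Col15a1: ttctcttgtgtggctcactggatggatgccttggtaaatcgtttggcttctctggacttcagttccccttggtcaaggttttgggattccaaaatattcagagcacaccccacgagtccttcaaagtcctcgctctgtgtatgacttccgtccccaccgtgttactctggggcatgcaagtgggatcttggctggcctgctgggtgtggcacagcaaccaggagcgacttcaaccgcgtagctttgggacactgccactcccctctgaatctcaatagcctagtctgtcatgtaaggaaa
Col18a1 first start: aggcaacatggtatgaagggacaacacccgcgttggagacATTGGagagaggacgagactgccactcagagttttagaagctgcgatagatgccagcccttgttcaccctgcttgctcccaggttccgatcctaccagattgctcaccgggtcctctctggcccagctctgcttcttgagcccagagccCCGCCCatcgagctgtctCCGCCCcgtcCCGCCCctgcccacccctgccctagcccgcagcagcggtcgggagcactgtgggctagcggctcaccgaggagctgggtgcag
Col18a1 second start: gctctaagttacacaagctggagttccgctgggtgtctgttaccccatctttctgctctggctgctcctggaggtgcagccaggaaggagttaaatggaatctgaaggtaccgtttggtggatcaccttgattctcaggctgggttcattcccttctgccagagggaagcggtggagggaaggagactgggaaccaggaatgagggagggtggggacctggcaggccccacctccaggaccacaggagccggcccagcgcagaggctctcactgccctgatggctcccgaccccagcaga
Col4a1: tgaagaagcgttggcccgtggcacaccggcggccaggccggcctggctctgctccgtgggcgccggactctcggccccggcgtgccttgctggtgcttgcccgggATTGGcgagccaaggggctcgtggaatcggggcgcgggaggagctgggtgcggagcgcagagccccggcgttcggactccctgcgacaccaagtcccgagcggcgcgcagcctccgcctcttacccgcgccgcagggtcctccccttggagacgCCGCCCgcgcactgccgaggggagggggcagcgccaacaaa
Col4a2: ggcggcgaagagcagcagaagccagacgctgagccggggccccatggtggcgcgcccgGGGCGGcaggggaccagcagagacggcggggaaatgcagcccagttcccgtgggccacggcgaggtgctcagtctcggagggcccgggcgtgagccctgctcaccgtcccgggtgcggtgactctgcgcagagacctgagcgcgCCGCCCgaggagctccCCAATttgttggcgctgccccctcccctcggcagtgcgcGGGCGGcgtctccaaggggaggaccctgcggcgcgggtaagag
The Bgn window held 3 GC boxes, 2 of them overlapping, just before the start. The first Col18a1 start had 3 GC boxes and a CCAAT box, and none of the 4 motifs was found at its second start or at Col15a1. The Col4a1 and Col4a2 starts lie 21 bases apart on opposite strands, so that the windows share 78 bases. Over the 42 members with a window, 54.8% held a GC box, 33.3% a CCAAT box, 26.2% a TATA box and 11.9% an AP-1 motif. Over all 27025 genes with a window the shares were 35.9, 37.9, 14.2 and 7.93%. Such matches describe letters only.

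The first comparison set the diaphragm against limb, taken as the average of 4 muscles, within each genotype. In wild-type mice Bgn (biglycan, a small proteoglycan that binds collagen and growth factors), Fn1 (fibronectin, the adhesive glycoprotein of the interstitium) and 3 collagens, Col18a1, Col15a1 and Col14a1, were higher in the diaphragm, and Col1a1, a chain of the main fibrillar collagen, was lower. In transgenic mice Bgn, Fn1 and Col15a1 were again higher, as were Dcn (decorin) and Lum (lumican), small proteoglycans that shape collagen fibrils. Values are differences of log2(signal + 50), diaphragm minus limb, ± SE, with p-values adjusted over all 9322 probe sets tested. By this test 6 of the 48 tested members (12.5%) passed an adjusted p of 0.05 in wild-type mice, 5 higher and 1 lower, where 20.8% of all probe sets passed (10.1% higher, 10.7% lower). In transgenic mice 5 members passed, all higher (10.4%), where 8.16% of all probe sets did (4.92% higher, 3.24% lower). The members' median log2 difference was 0.05 in wild-type and 0.04 in transgenic mice, against -0.08 and -0.01 over all probe sets. The members' share lay below that of the whole array in wild-type mice and somewhat above it in transgenic mice. Calls among members were mostly higher, whereas those of the array went both ways. None of these gaps was tested. In bulk muscle fewer cells of a type and less RNA per cell cannot be told apart.

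The scaled signal of Bgn on wild-type diaphragm arrays was 2995 and 3748 at 7 months and 4195 and 5730 at 10 months, and on the 14 wild-type limb arrays it ran from 917 to 2668 (median 1606). On transgenic diaphragm arrays it was 3855, 4446, 4528 and 4399, against 1048 to 3471 (median 2377) in transgenic limb. The diaphragm lay above limb without overlap in both genotypes, by 1.25 ± 0.23 (adjusted p = 0.00017) and 0.97 ± 0.23 (adjusted p = 0.0066). Bgn was the 1 member without overlap in wild-type mice, where 7.38% of all probe sets had none, and Bgn and Col15a1 were the 2 in transgenic mice (3.46%). A second Bgn probe set gave smaller differences of 0.34 ± 0.15 (adjusted p = 0.11) and 0.35 ± 0.15 (adjusted p = 0.18), so the size rests on the brighter probe set.

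Fn1 signal was 1631, 1767, 1338 and 1792 on wild-type diaphragm arrays and 670 to 1375 (median 1001) in wild-type limb. It was 1402, 1212, 1175 and 1395 on transgenic diaphragm arrays and 633 to 1176 (median 945) in transgenic limb. In each genotype the lowest diaphragm array lay within the limb range and the other 3 above it. The log2 difference was 0.75 ± 0.14 (adjusted p = 0.00019) in wild-type and 0.47 ± 0.14 (adjusted p = 0.032) in transgenic mice.

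Col15a1 and Col18a1 encode the multiplexin collagens, which sit at the outer face of basement membranes and carry the sources of restin and endostatin. Col15a1 signal was 577, 1008, 1303 and 1079 on wild-type diaphragm arrays, 3 of them above the wild-type limb range of 376 to 912 (median 633). On transgenic diaphragm arrays it was 1106, 1149, 1520 and 1131, all above the transgenic limb range of 502 to 989.9 (median 812). The differences were 0.57 ± 0.18 (adjusted p = 0.021) and 0.62 ± 0.18 (adjusted p = 0.027).

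Col18a1 had the largest difference of the 48 members in wild-type mice. Its signal was 1617, 1729, 778 and 1644 on wild-type diaphragm arrays and 111 to 783 (median 358) in wild-type limb, a difference of 1.81 ± 0.33 (adjusted p = 0.00014). On transgenic diaphragm arrays it was 521, 934, 459.8 and 925, against 98.7 to 723 (median 371) in limb, a difference of 0.81 ± 0.33 that did not pass (adjusted p = 0.15). Of its other tested probe sets 2 were also higher in wild-type diaphragm, by 3.10 ± 0.34 (adjusted p = 6.8e-08) and 1.95 ± 0.26 (adjusted p = 1.3e-06), and the third gave -0.31 ± 0.24 (adjusted p = 0.42). All 3 were dim, with mean signals of 177, 68.8 and 79.0, and reached 100 on 14, 6 and 10 arrays. In transgenic diaphragm the first of these passed (1.25 ± 0.34, adjusted p = 0.02) and the others did not.

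Col14a1, a fibril-associated collagen, had 379.8, 378, 464.5 and 342 on wild-type diaphragm arrays and 112 to 359 (median 231) in limb. Its difference was 0.67 ± 0.22 in both genotypes, with an adjusted p of 0.026 in wild-type and 0.052 in transgenic mice. Col1a1 went the other way, with 2735, 2061, 2635 and 1878 on wild-type diaphragm arrays inside a wide limb range of 1490.4 to 7504 (median 4501), a difference of -0.71 ± 0.24 (adjusted p = 0.03). In transgenic mice it was -0.47 ± 0.24 (adjusted p = 0.28). The second Col1a1 probe set was lower in both genotypes, by -0.84 ± 0.19 (adjusted p = 0.0014) and -0.78 ± 0.19 (adjusted p = 0.0075).

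Lum signal was 1884, 2550.4, 3418 and 2060.2 on transgenic diaphragm arrays and 1001 to 2445 (median 1600) in transgenic limb, a difference of 0.59 ± 0.17 (adjusted p = 0.033). In wild-type mice the Lum difference was 0.45 ± 0.17 (adjusted p = 0.067). Dcn was at 12817, 16757, 18215 and 21970 on transgenic diaphragm arrays against 10111 to 16091 (median 13304) in limb, 3 of 4 above that range, a difference of 0.37 ± 0.11 (adjusted p = 0.036). Its wild-type difference was 0.04 ± 0.11 (adjusted p = 0.85). None of the 48 members passed a test of whether the diaphragm-to-limb difference itself differed between genotypes, where 0.815% of all probe sets did (0.719% with a smaller difference in transgenic mice). At an unadjusted p under 0.05 there were 3 members, beside 745 of all 9322 probe sets. The values nearest to passing were Col18a1 at -1.0 ± 0.46 (adjusted p = 0.58), Lamb1 at 0.51 ± 0.24 (0.59), Dcn at 0.32 ± 0.16 (0.61) and Col8a1 at 0.62 ± 0.31 (0.68).

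**Figure D1:**
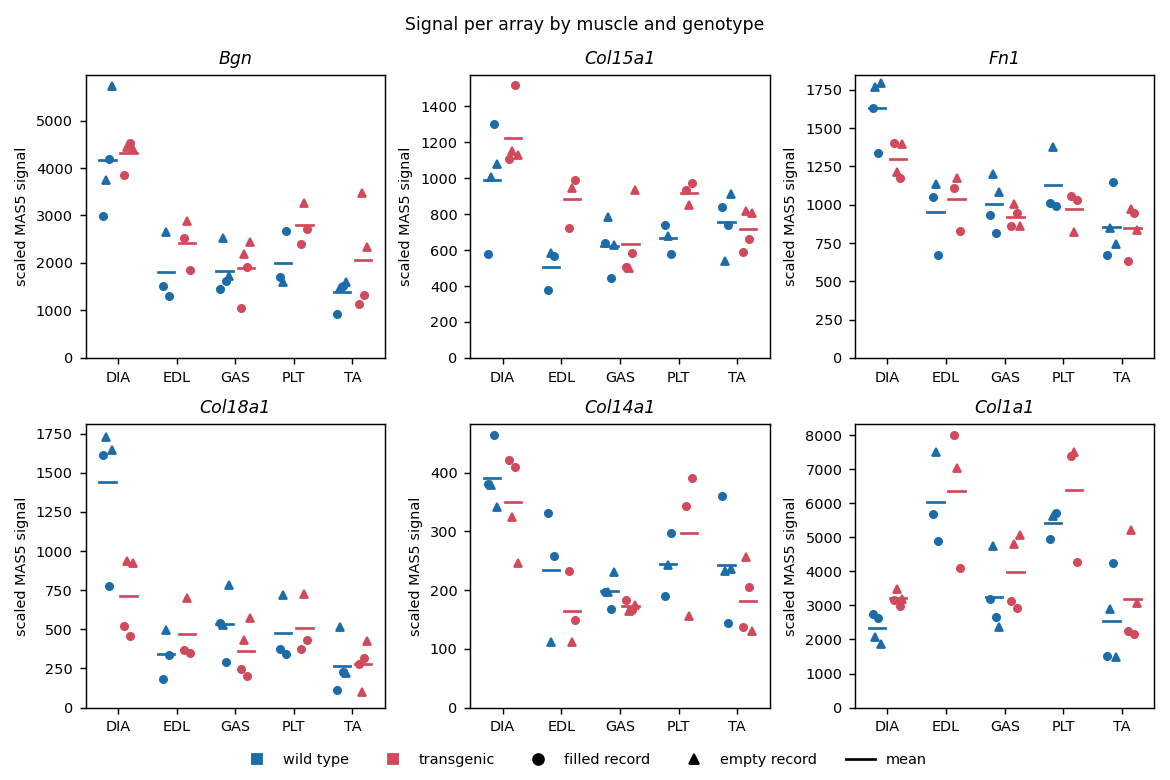
Scaled MAS5 signal on each of the 36 arrays (linear axis from 0) for 6 members, by muscle (DIA diaphragm, EDL extensor digitorum longus, GAS gastrocnemius, PLT plantaris and TA tibialis anterior) and by genotype, with bars at group means and the shape of a point giving its set of arrays. Bgn on diaphragm arrays lies above limb arrays of the same genotype, and 3 of the 4 wild-type Col18a1 diaphragm values lie above 1600.

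The classes hold 2 to 8 tested genes each, and their counts stand beside the 20.8% of all probe sets that passed in wild-type and the 8.16% that passed in transgenic mice. All 3 small proteoglycans passed in transgenic mice and 1 of 3 (Bgn) in wild-type mice, and 2 of 5 basement membrane collagens passed in wild-type mice and 1 in transgenic mice. No laminin (8 tested), collagen VI chain (3), lysyl oxidase (2), TIMP (3) or metalloproteinase (4) passed in either genotype. The wild-type values of the laminins that muscle fibres use most were -0.49 ± 0.24 for Lama2 (adjusted p = 0.15), whose loss causes a congenital muscular dystrophy, -0.49 ± 0.21 for Lamb2 (0.11), -0.34 ± 0.17 for Lamb1 (0.18) and 0.09 ± 0.31 for Lamc1 (0.89). A second, dimmer Lamb1 probe set gave 0.18 ± 0.19 (0.59). The type IV collagen chains gave -0.31 ± 0.16 for Col4a1 (0.19) and -0.04 ± 0.14 for Col4a2 (0.89). Col3a1, which copolymerises with collagen I, had 0.62 ± 0.30 in wild-type mice (0.17) and 0.58 ± 0.30 in transgenic mice (0.31), with all 4 diaphragm arrays above the limb mean in each. Its other tested probe sets gave -0.12 ± 0.23 (0.79) and 0.28 ± 0.30 (0.59) in wild-type mice. In transgenic mice they gave 0.14 ± 0.23 (0.86) and 0.55 ± 0.30 (0.33). Col1a2 gave -0.33 ± 0.26 (0.42), Col5a2 0.04 ± 0.23 (0.93), Col6a1 0.17 ± 0.22 (0.69), Sparc -0.06 ± 0.25 (0.92) and Lox -0.77 ± 0.31 (0.08) in wild-type mice. Timp1, Timp2 and Timp3 had 0.20 ± 0.37, 0.26 ± 0.44 and -0.07 ± 0.18, with adjusted p between 0.77 and 0.85.

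**Figure D2:**
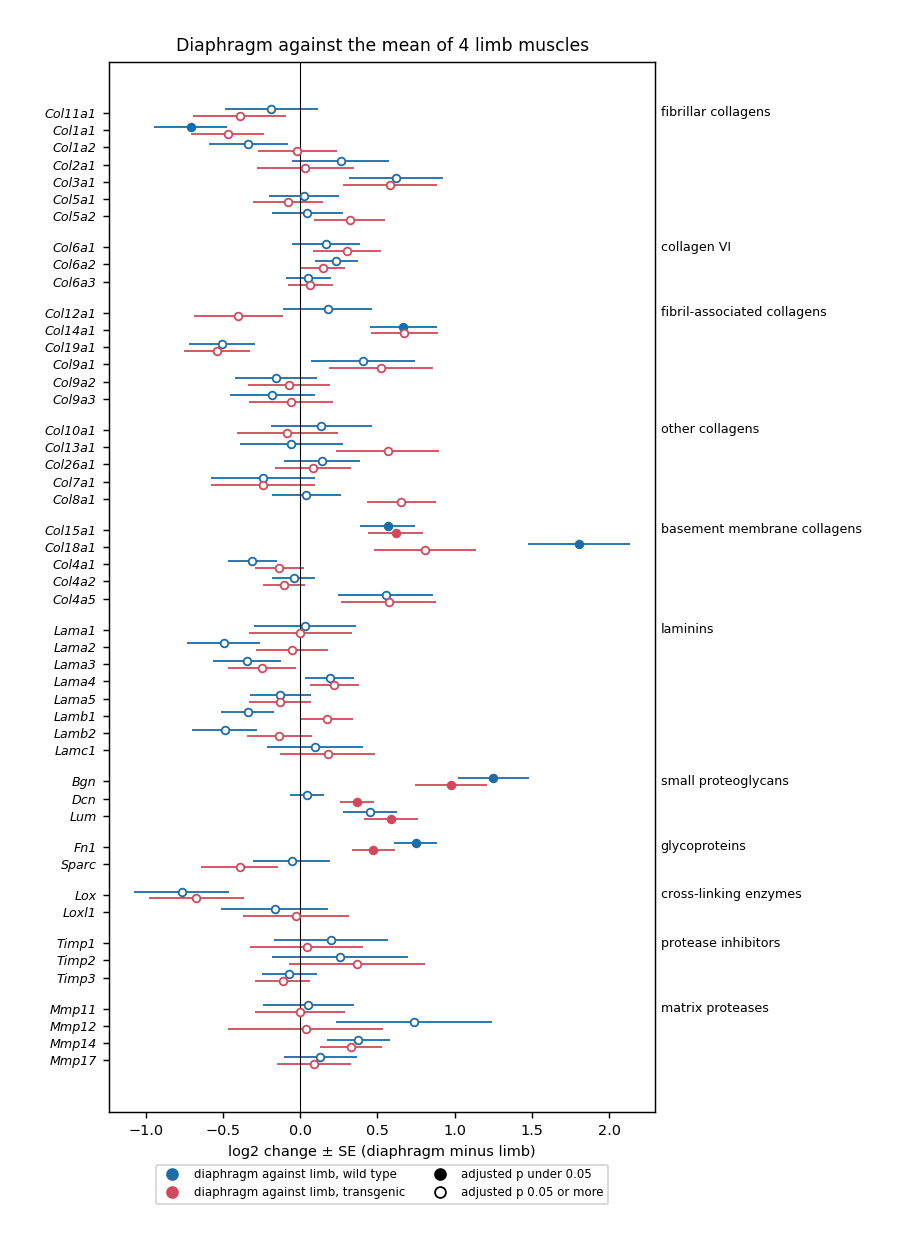
Log2(signal + 50) in diaphragm minus that in limb, the average of 4 muscles (x axis, ± SE) for the 48 tested members, grouped by class, in wild-type (blue) and transgenic (red) mice, with filled points where the adjusted p is under 0.05. Filled points are 6 in wild-type and 5 in transgenic mice, of which Bgn, Col15a1 and Fn1 are filled in both.

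Other matrix genes were taken from separate lists, whose counts stand beside those of all probe sets. In wild-type diaphragm 10.1% of all probe sets were higher and 10.7% lower, and in transgenic diaphragm 4.92% and 3.24%. Of 20 further glycoproteins and proteoglycans, 6 were higher and 1 lower in wild-type diaphragm, and 4 were higher in transgenic diaphragm. Fbln1 (fibulin-1, a basement membrane and elastic fibre protein) was higher by 1.41 ± 0.17 (adjusted p = 4.5e-07) and 1.46 ± 0.17, and Mgp (matrix Gla protein, an inhibitor of calcification) by 0.86 ± 0.18 and 0.87 ± 0.18. Vtn (vitronectin, a plasma protein made by liver) was higher by 3.67 ± 0.48 in wild-type diaphragm, and Fmod (fibromodulin, abundant in tendon) was lower there by -1.24 ± 0.37 (adjusted p = 0.015). Of 11 collagen-processing genes 2 passed in wild-type diaphragm, Serpinh1 (the collagen chaperone Hsp47), higher by 0.95 ± 0.24 (adjusted p = 0.0035), and Ppib (a prolyl isomerase of the collagen folding complex), higher by 0.93 ± 0.24 (adjusted p = 0.0048), and none passed in transgenic diaphragm. Of 15 matrix receptors Sgca (alpha-sarcoglycan) was lower by -1.39 ± 0.18 and Sdc2 (syndecan-2) higher by 0.81 ± 0.23 in wild-type diaphragm, and none passed in transgenic diaphragm. Of 13 TGF-beta signalling genes Ltbp4, which holds latent TGF-beta in the matrix, was higher in both genotypes (0.78 ± 0.17 and 0.69 ± 0.17), and Tgfb2 and Smad4 were lower in wild-type diaphragm (-0.95 ± 0.18 and -0.77 ± 0.20).

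Markers of several other cell types differed between diaphragm and limb. Their counts stand beside the same shares of all probe sets, 10.1% higher and 10.7% lower in wild-type and 4.92% and 3.24% in transgenic diaphragm. All 12 hepatocyte markers tested were higher in the diaphragm in both genotypes. Their summed signal was 47864 to 157656 on wild-type diaphragm arrays, 6093 to 125703 on transgenic diaphragm arrays and 836 to 3290 on limb arrays of both genotypes, and Alb, the albumin gene, had 18.1 to 548 on limb arrays. Of the 8 mesothelial markers 6 were higher in wild-type and 5 in transgenic diaphragm (sums of 2973 to 4185 and 2138 to 3839, against 471 to 1680.1 in limb), and 1, Itln1, was lower in transgenic diaphragm (-0.82 ± 0.25, adjusted p = 0.042). Of 11 macrophage markers 8 and 6 were higher, of 5 adipocyte markers 3 and 3, of 7 fibroblast markers 3 and 1, of 9 endothelial markers 1 and 1 (Eng), and of 6 smooth muscle markers 1 and 0. Of 8 skeletal muscle markers 6 and 4 were lower, and Myh7, the slow myosin heavy chain gene, was higher in wild-type diaphragm (1.19 ± 0.30, adjusted p = 0.0042). Mbp was lower among 5 Schwann cell markers in both. Fibroblast marker sums overlapped, at 5802 to 7864 and 5357 to 8137 in diaphragm against 3220 to 6859 and 2991 to 7373 in limb.

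The values of Col18a1 and Bgn are given beside the hepatocyte sum of the same array, and no difference between the genes was tested. The 3 wild-type diaphragm arrays with Col18a1 above 1600 had hepatocyte sums of 147176 to 157656, and the fourth, with 778, had the lowest wild-type sum, 47864. The transgenic diaphragm array with the highest sum, 125703, had a Col18a1 signal of 934, and another with 925 had a sum of 23623. Bgn on the transgenic diaphragm arrays with the 2 lowest sums was 3855 and 4528, and on that with the highest sum 4446. With the hepatocyte signal as a covariate 0 members passed in either genotype, the wild-type difference of Col18a1 being 0.56 (adjusted p = 0.9), of Bgn 0.99 (0.78), of Fn1 0.66 (0.74), of Col15a1 0.79 (0.77) and of Col14a1 1.04 (0.74). The share of all probe sets that passed with the covariate is not given here, so this count does not set the members apart from the array. The covariate does not overlap between diaphragm and limb arrays, so region and covariate can hardly be separated in that fit, and the part of liver RNA in these signals cannot be told apart from region.

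**Figure D3:**
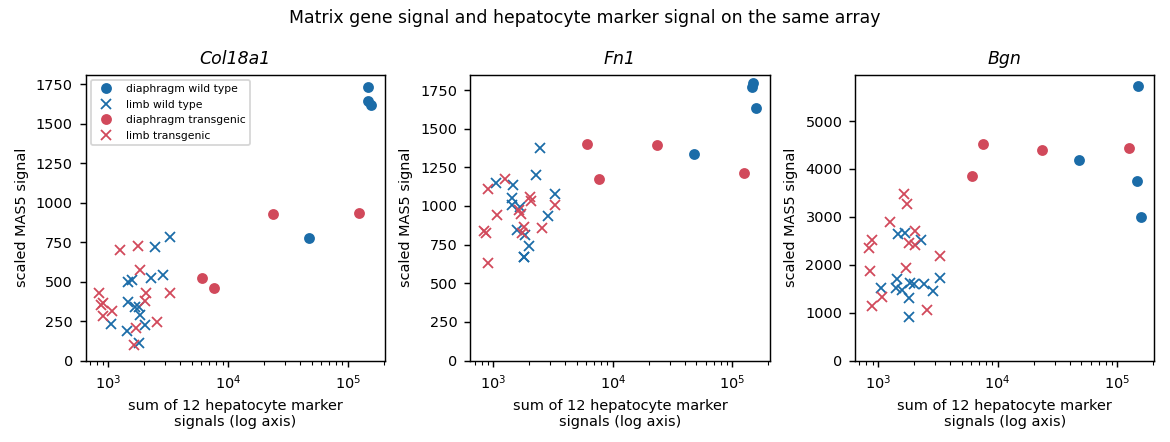
Scaled signal of Col18a1, Fn1 and Bgn (y axes, linear) against the summed signal of 12 hepatocyte markers on the same array (x axis, log scale), for diaphragm (circles) and limb (crosses) in wild-type (blue) and transgenic (red) mice. All 8 diaphragm arrays lie to the right of every limb array, and Bgn is at least 3855 on transgenic diaphragm arrays whose sums differ by over a factor of 10.

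Between the sets of arrays these diaphragm differences kept their sign. With replicate number as a block 8 members passed in transgenic mice, the 5 above with Col14a1, Col3a1 and Col8a1, where 11.9% of all probe sets did. Within arrays of replicate 1 and of replicate 2, the wild-type difference was 1.19 and 1.25 for Bgn, 0.69 and 0.68 for Fn1, 1.84 and 1.58 for Col18a1, 0.51 and 0.61 for Col15a1, 0.73 and 0.75 for Col14a1, and -0.49 and -1.06 for Col1a1. In transgenic mice these were 1.22 and 0.65 for Bgn, 0.47 and 0.43 for Fn1, 0.80 and 0.45 for Col15a1, 0.54 and 0.66 for Lum and 0.23 and 0.50 for Dcn. Leaving out any 1 of the 36 arrays kept Bgn, Fn1 and Col18a1 past the threshold in wild-type mice (highest adjusted p of 0.0036, 0.0037 and 0.0028), whereas Col14a1, Col15a1 and Col1a1 lost it without some of the wild-type diaphragm arrays or the wild-type plantaris array at 10 months, and Col1a1 also without the wild-type extensor digitorum longus array at 10 months (highest adjusted p of 0.12, 0.13 and 0.15). In transgenic mice the count fell from 5 to 0 without the diaphragm array of 7 months replicate 2 (adjusted p = 0.058 for Bgn), to 1 without that of 10 months replicate 1, to 2 without the extensor digitorum longus array of 10 months and to 3 without the diaphragm array of 7 months replicate 1.

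The second comparison asked whether the 4 limb muscles differed among themselves, by a moderated F test. No member passed in wild-type mice, where 0.601% of all probe sets did, and none in transgenic mice, where 0.569% did. At an unadjusted p under 0.05 there were 5 members in wild-type mice, beside 828 of all 9322 probe sets, and 8 in transgenic mice, beside 616 of 9322. With replicate number as a block Col1a1 passed in wild-type mice, where 1.43% of all probe sets did. The smallest adjusted p in wild-type mice belonged to Col1a1 (0.1), Lox (0.32), Timp3 (0.35) and Col11a1 (0.44), and in transgenic mice to Timp3 (0.17), Lox (0.22), Sparc (0.45) and Col1a1 (0.45). Over both genotypes Col1a1 signal was 4091 to 7995 (median 6364) in extensor digitorum longus and 4284 to 7496 (median 5671) in plantaris, against 2378 to 5064 (median 3164) in gastrocnemius and 1490.4 to 5226 (median 2565) in tibialis anterior. Lox, the enzyme that crosslinks collagen, had medians of 286, 227, 118 and 78.3 in the same order, and Timp3, the TIMP that binds to the matrix, 3096, 3520.3, 2272 and 2678. Sparc (osteonectin, a collagen-binding protein) was at 1676, 2432, 1439 and 1116. The 4 tendon markers on these arrays (Fmod and others) summed to 6547 to 11134 in extensor digitorum longus, 6948 to 9904 in plantaris, 3574 to 8221 in gastrocnemius and 1009 to 6201 in tibialis anterior, and their part in these signals was not tested.

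The third comparison, transgenic against wild type averaged over the 5 muscles, addresses the effect of the transgene. No member passed the test, which had no term for the set of arrays, where 1.17% of all probe sets did (0.858% higher, 0.311% lower). At an unadjusted p under 0.05 there were 12 of 48 members, beside 1613 of 9322 probe sets. The call depended on this choice. With replicate number as a block the differences of the members stayed as they were and their errors shrank, and 4 members passed, where 6.37% of all probe sets did: Col1a2 at -0.40 ± 0.08 (adjusted p = 0.0046), Col9a1 at -0.58 ± 0.15 (0.018), Col3a1 at 0.42 ± 0.12 (0.034) and Col4a1 at 0.28 ± 0.08 (0.035). With scan day as a block 6 passed (Bgn, Col1a1, Col1a2, Col3a1, Col5a2 and Timp1), where 10.4% of all probe sets did. Col1a2 and Col3a1, on their brightest probe sets, passed under both blocks. Wild-type and transgenic arrays of replicate 1 from the same muscle and age were scanned on different days, except extensor digitorum longus at 10 months. Within a muscle, genotype and scan day can thus hardly be told apart in replicate 1. Arrays of replicate 2 have no scan day and formed a block of their own. Of the 48, 22 had a positive difference, and the median was -0.04 against -0.03 over all probe sets. Without a block the smallest p belonged to Col4a1 at 0.28 ± 0.09 (adjusted p = 0.12), Col9a1 at -0.58 ± 0.20 (0.14), Col15a1 at 0.30 ± 0.10 (0.15) and Col6a2 at 0.23 ± 0.08 (0.16). No member separated the genotypes without overlap, and 0.0% of all probe sets did.

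Col4a1 signal ran from 781 to 2485 (median 1636) on the 18 wild-type arrays and from 1445 to 2746 (median 1823) on the 18 transgenic arrays, and 15 of 18 transgenic arrays exceeded the mean of wild-type arrays from the same muscle. Its partner Col4a2 ran from 893 to 1845 (median 1515) and from 1308 to 2417 (median 1727), a difference of 0.22 ± 0.08 (adjusted p = 0.17). Of the 5 basement membrane collagens 4 were positive and Col18a1 was negative (-0.17 ± 0.19, adjusted p = 0.66). All 3 collagen VI chains were positive (Col6a1 0.15 ± 0.13, Col6a2 0.23 ± 0.08 and Col6a3 0.04 ± 0.09), and all 6 fibril-associated collagens and all 4 metalloproteinases were negative, and none of these passed without a block.

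The fibrillar collagens had values of both signs. Col3a1 was at 447 to 1932 (median 842) on wild-type and 619 to 2306 (median 1054) on transgenic arrays, a difference of 0.42 ± 0.18 (adjusted p = 0.23), and Col5a2 gave 0.33 ± 0.14 (0.21). The other tested Col3a1 probe sets, both dimmer, gave smaller differences of 0.07 ± 0.14 (0.82) and 0.11 ± 0.17 (0.76). Col1a2 gave -0.40 ± 0.15 (0.18) on its brightest probe set and 0.12 ± 0.13 (0.64) on its second, and Col1a1 gave 0.28 ± 0.14 (0.30) and -0.14 ± 0.11 (0.52). Probe sets of 1 gene thus disagreed in sign for both chains of collagen I. The same held for Bgn, at 0.30 ± 0.14 (0.25) and -0.24 ± 0.09 (0.16), and for Timp2, at 0.12 ± 0.26 (0.83) and -0.51 ± 0.16 (0.11). Timp1, an inhibitor that fibroblasts and inflammatory cells secrete, was at 498 to 2749 (median 953) on wild-type and 355 to 1376 (median 730.1) on transgenic arrays, a difference of -0.50 ± 0.22 (0.24).

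Of the remaining members described in every comparison, Lum gave 0.16 ± 0.10, Dcn -0.075 ± 0.07, Fn1 -0.10 ± 0.08, Sparc 0.24 ± 0.15, Lama2 0.18 ± 0.14, Lamb1 0.05 ± 0.10, Lamc1 -0.27 ± 0.18, Timp3 0.06 ± 0.10 and Lox 0.03 ± 0.18, with adjusted p from 0.40 upwards. The gelatinase Mmp2 reached 100 on 4 arrays, with signals of 6.80 to 149, and was not tested. Within arrays of replicate 1 and of replicate 2 the genotype difference was 0.34 and 0.21 for Col4a1, 0.32 and 0.06 for Col4a2, 0.31 and 0.13 for Col6a2, -0.53 and -0.60 for Col9a1, and -0.18 and -0.82 for Timp1. No gene of the collagen-processing, further matrix, receptor or TGF-beta lists passed on average over the muscles.

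**Figure D4:**
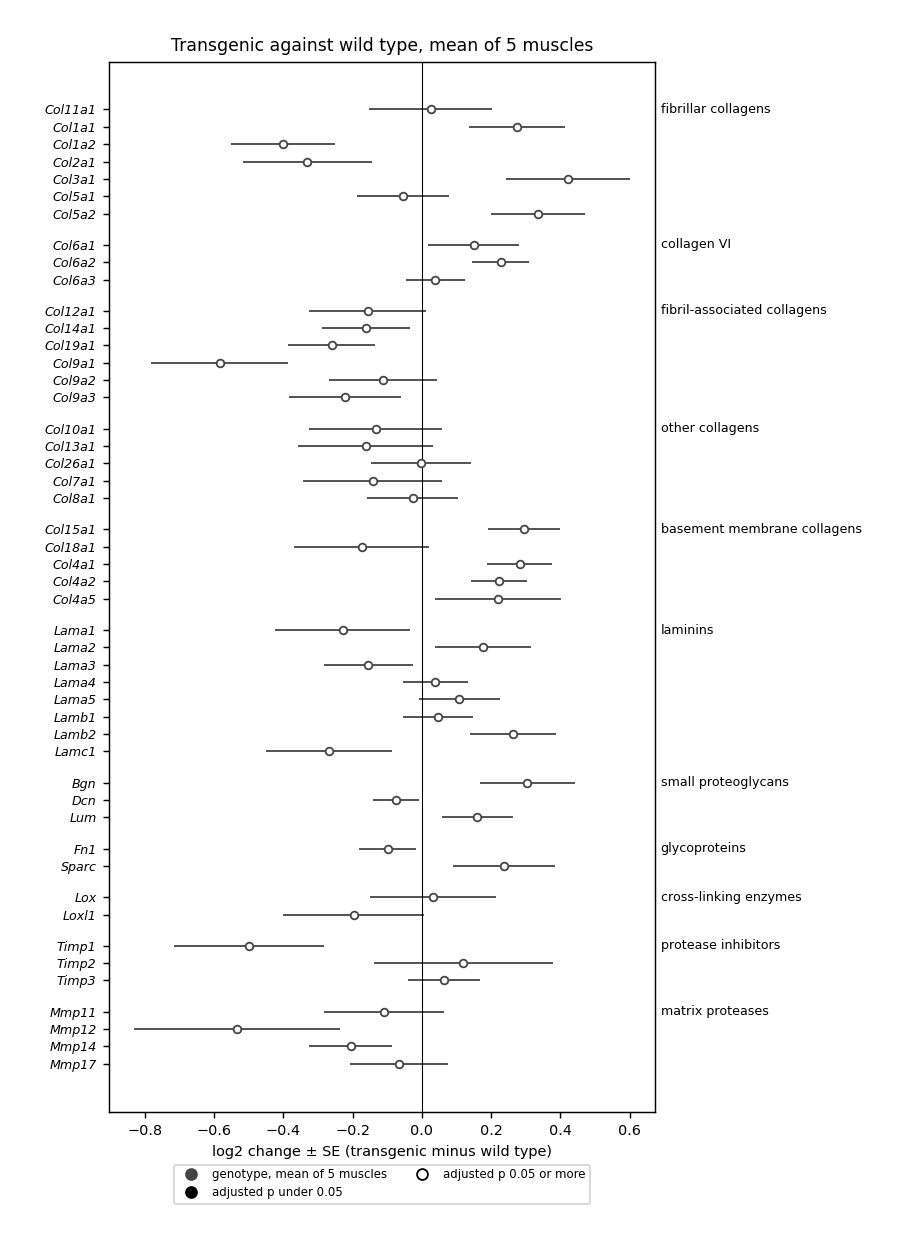
Difference of log2(signal + 50) between transgenic and wild-type arrays averaged over 5 muscles (x axis, ± SE) for the 48 tested members, grouped by class. The fit has no term for the set of arrays, and all points are open, since none had an adjusted p under 0.05 in it, and values run from -0.58 for Col9a1 to 0.42 for Col3a1.

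Muscle by muscle, no member passed either. The share of all probe sets that passed was 3.42% in diaphragm (1.19% higher, 2.23% lower), 0.0107% in extensor digitorum longus, 0% in gastrocnemius, 0% in plantaris and 0.15% in tibialis anterior. In the same order 4, 3, 3, 1 and 1 of the 48 members had an unadjusted p under 0.05. Beside them stood 1179, 601, 209, 174 and 592 of all 9322 probe sets. In diaphragm the smallest p belonged to Col18a1 at -0.97 ± 0.41 (adjusted p = 0.28), followed by Col4a1 at 0.42 ± 0.20 (0.36), Lamb1 at 0.46 ± 0.21 (0.36) and Lamb2 at 0.55 ± 0.26 (0.38). A second, dimmer Lamb1 probe set had the other sign, at -0.12 ± 0.24 (0.91). Of the 3 other tested Col18a1 probe sets, all of low signal, 1 was lower in transgenic diaphragm by -1.17 ± 0.32 (adjusted p = 0.036), and the others gave -1.42 ± 0.43 (0.066) and 0.39 ± 0.30 (0.68). The hepatocyte markers moved with that contrast, 10 of 12 being lower in transgenic than in wild-type diaphragm, and their part in the Col18a1 values was not tested. Col1a1 was the 1 member without overlap in diaphragm (4.68% of all probe sets), higher on all 4 transgenic arrays (2981 to 3493) than on the wild-type arrays (1878 to 2735), with a difference of 0.47 ± 0.29 (adjusted p = 0.58). The second Col1a1 probe set gave -0.09 ± 0.23 (0.94). In the other matrix lists Vtn was lower in transgenic diaphragm (-2.16 ± 0.59, adjusted p = 0.038), and Sgca (0.99 ± 0.22, 0.0088) and Tgfb2 (0.92 ± 0.23, 0.019) were higher.

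In extensor digitorum longus 5 members had no overlap between 3 transgenic and 3 wild-type arrays (12.7% of all probe sets). Col15a1 was at 722, 946 and 989.9 on transgenic and 376, 582 and 565 on wild-type arrays, a difference of 0.76 ± 0.25 (adjusted p = 0.55). The others were Col1a2 (-0.84 ± 0.37, 0.69), Col4a2 (0.42 ± 0.20, 0.75), Timp1 and Lamc1. In plantaris 4 had no overlap (7.79%), Col4a1 (0.51 ± 0.23), Col15a1 (0.44 ± 0.25), Dcn and Mmp12, each with an adjusted p of 1.0. In gastrocnemius Col9a1 gave -1.08 ± 0.42, Col6a2 0.44 ± 0.17, Col7a1 -0.87 ± 0.42 and Dcn -0.24 ± 0.14, and in tibialis anterior Timp1 gave -1.02 ± 0.46, Col12a1 -0.65 ± 0.36, Mmp17 -0.49 ± 0.29 and Bgn 0.46 ± 0.29, none with an adjusted p under 0.76. The F test of the genotype difference across the 5 muscles passed for no member and for 0.0322% of all probe sets. At an unadjusted p under 0.05 there were 0 members, beside 374 of all 9322 probe sets.

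The fourth comparison set 10 months against 7 months. On average over the muscles no probe set passed (0% of 9322 by limma, 776 at an unadjusted p under 0.05), nor did any in a single muscle. Among members 7 had an unadjusted p under 0.05 on average. Timp3 was at 1454 to 3999 (median 2652) on the 20 arrays from 7 months and 1814 to 5984 (median 3082) on the 16 from 10 months, a difference of 0.39 ± 0.11 (adjusted p = 0.37) with 13 of 16 older arrays exceeding the mean of younger arrays from the same muscle. Dcn gave 0.17 ± 0.07 (0.54), Mmp11 (stromelysin-3) 0.44 ± 0.18 (0.54) and Lama3 -0.32 ± 0.13 (0.54). Within replicate 1 no scan day held arrays of both ages, so age and scan day cannot be told apart there. The genotype difference did not pass a test of change with age for any probe set (0%, 195 unadjusted), and the member with the smallest p was Lox at 1.04 ± 0.30 (adjusted p = 1.0).

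The difference between the 2 sets of arrays, tested after the data were seen, reached more probe sets than any contrast above. Of the 48 members 21 differed between replicate 2 and replicate 1 over all muscles and genotypes, 15 higher and 6 lower in replicate 2, where 42.9% of all probe sets differed. Timp2 was at 116 to 1042 (median 483) on the 20 arrays of replicate 1 and at 117 to 414 (median 204) on the 16 of replicate 2, a log2 difference of -1.06 (adjusted p = 2.8e-05). Lamc1 was at 395 to 988 (median 634) and 737 to 1724 (median 973), a difference of 0.77. Mmp12 (macrophage elastase), Col9a1, Loxl1, Col18a1 and Col1a2 were higher in replicate 2 by 0.99, 0.73, 0.71, 0.68 and 0.68, and Col3a1, Col4a5, Col7a1, Col5a2 and Lama2 lower by -0.72, -0.62, -0.56, -0.46 and -0.43. Both sets hold arrays of every muscle and of both genotypes, and their origin is not stated.

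**Figure D5:**
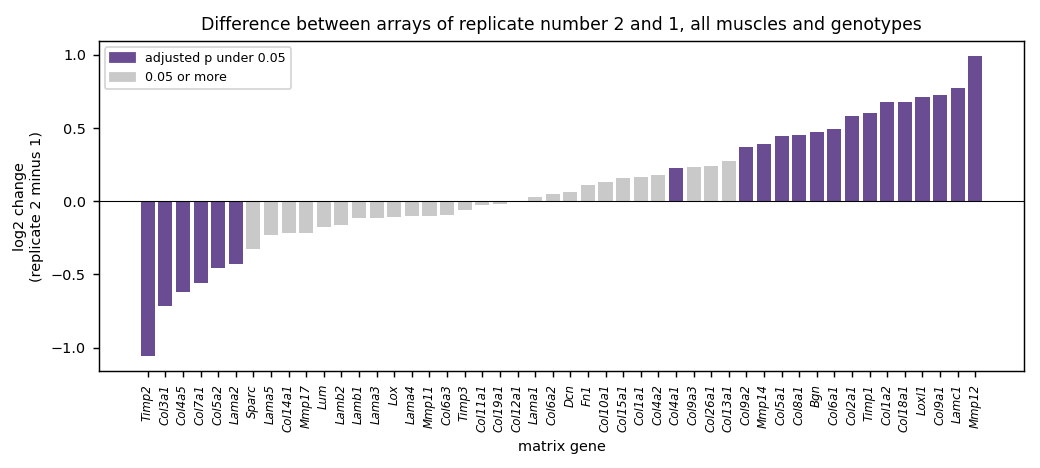
Log2 difference between arrays of replicate number 2 and 1 (y axis) for the 48 tested members, in rising order, estimated over all muscles, genotypes and ages. The 21 purple bars have an adjusted p under 0.05, from -1.06 for Timp2 to 0.99 for Mmp12.

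Several matrix genes lie side by side, and 5 neighbouring pairs within 300000 bases had both genes tested. After muscle, genotype, age and replicate number were removed, the signals of Col4a1 and Col4a2, which share their promoter region, correlated over the 36 arrays with Pearson r = 0.579 (permutation p = 0.00023, adjusted over 5 pairs 0.0011) and Spearman rho = 0.426 (p = 0.0099, adjusted 0.025). Without the 2 arrays farthest from the median of Col4a1 r was 0.404, and within replicate 1 and replicate 2 it was 0.70 and 0.30. Col3a1 and Col5a2, neighbours on chromosome 1, gave r = 0.549 (permutation p = 0.00049, adjusted 0.0012) and rho = 0.481 (p = 0.0032, adjusted 0.016), with 0.532 without the 2 farthest arrays and 0.576 and 0.496 within the sets. Col9a1 and Col19a1 gave r = 0.318 and rho = 0.24, Col6a2 and Col6a1 r = 0.147 and rho = 0.04, and Dcn and Lum r = 0.035 and rho = -0.066, with adjusted permutation p of r from 0.097 to 0.84. The removal leaves 20 degrees of freedom over 36 arrays, which these permutations do not take into account, so the p-values are too small.

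The 16 members that did not reach the filter were Adamts1, Col4a3, Col4a4, Col11a2, Col17a1, Col22a1, Lamb3 and 9 metalloproteinases (Mmp2, Mmp3, Mmp7, Mmp8, Mmp9, Mmp10, Mmp13, Mmp16 and Mmp24). They reached 100 on at most 5 arrays each. Col4a3 and Col4a4, chains of the kidney and lung basement membrane, had medians of 21.0 and 23.0.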

How the data were processed

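Affymetrix MG_U74Av2 arrays measured RNA in 5 muscles of wild-type and transgenic mice. The deposited signal intensities were made with MAS5, per the submitters' processing notes; the sources used here do not give its version, and depth does not apply to arrays, whose number limits precision. All 36 deposited columns matched a sample (0 others). Arrays were rescaled to a trimmed mean of 500 (2% cut at each end), 66 control probe sets were left out, and 9322 of 12488 probe sets, those with at least 100 on 6 or more arrays, were tested as log2(signal + 50). Groups came from the titles. limma 3.58.1 (R 4.3.3, statmod 1.5.0) fitted muscle by genotype means, with age as a term within muscles and a trend on intensity; the genotype-by-age test used a mean for each group. P-values were adjusted by Benjamini-Hochberg within a comparison, at 0.05. P-values measure the spread between arrays of pooled RNA, which without a block includes the difference between the sets of arrays. Deviations of arrays sharing genotype, age and replicate number correlated at 0.28, and the main fit took them as independent. The fit was tested on simulated data with independent noise and no difference between sets of arrays, so that test does not cover these features of the data.

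Of 10833 probe sets with 1 symbol 10817 matched the reference table by gene ID. The naming rule also covers Fbn1, which is not analysed here. Described were every member past the threshold, otherwise the 4 of smallest p, and a fixed set of 21 genes; in other lists up to 4 genes past the threshold. The members, lists and rules were chosen with earlier results of these data known. Alternatives covered scaling, pseudocount, filter, probe-set choice, blocks, covariates, array weights and left-out arrays. The lists were collagen processing, further matrix proteins, receptors, TGF-beta signalling and markers of fibroblasts, tendon, cartilage and bone (2 tested, 0 passing in the comparisons given), hepatocytes, mesothelium, macrophages, endothelium, smooth muscle, adipocytes, Schwann cells and skeletal muscle.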

Additional observations from a re-analysis of the deposited data

Results flagged for a closer look

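In sets of 4 arrays of a muscle and genotype, a member stood out where its highest or lowest array lay apart from the other 3 by more than Dixon's test allows at 95%. This held for 11 of 156 sets over 26 members, and chance alone gives about 1 in 20. In wild-type diaphragm, Col18a1 was 777.7 on the replicate 1 array from 10 months, against 1617.1 to 1729.2 on the others, and that array had the lowest hepatocyte marker sum of the group. Lama2 was 680.9 on the same array, against 260.5 to 319.2. Col4a1 was 781.0 and Dcn 10983.6 on the replicate 1 array from 7 months, against 1566.1 to 1667.5 and 16208.2 to 17155.0. In transgenic diaphragm, Col15a1 was 1520.3 on replicate 1 from 10 months, against 1105.6 to 1149.0, and Lamb2 was 305.7 on replicate 2 from 7 months, against 624.6 to 684.9. In wild-type gastrocnemius, Col19a1 was 312.9 on replicate 2 from 10 months, an array with a high Gapdh ratio, against 142.2 to 163.8. Col4a1 was 1114.1 there on replicate 1 from 10 months, against 1603.2 to 1652.4, and Col6a1 was 2747.7 on replicate 2 from 7 months, against 1668.6 to 1728.6. In transgenic tibialis anterior, the replicate 1 array from 7 months had Col6a2 at 1182.5, against 893.0 to 941.7, and Timp1 at 392.4, against 828.8 to 872.0.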

How the results depend on the processing

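Of the counts of members past the threshold, 273 stayed within 1.5 times under the alternatives and 29 moved. Counts of 0 that stayed at 0 are among the 273. Every comparison except diaphragm against limb had 0 in the main fit, so this tally does not measure how stable the diaphragm calls were. For single genes, together with the median differences of the members, 4887 values stayed, 36 passed the threshold and 84 lost it. The 4887 include values past the threshold in neither fit. Among values past the threshold in the main fit or the alternative, 0 reversed sign. Sign changes of other values were not counted. The counts that follow can include members other than those called in the main fit. Shares of all probe sets are given above only for some fits with a replicate or scan-day block. The other counts thus do not set members apart from the array. Beside the 6 called in wild-type diaphragm against limb, 3 members passed within replicate 1 and 3 within replicate 2 (Bgn, Col1a1 and Lox). With a random block for arrays sharing genotype, age and replicate number 11 passed. That fit had no separate term for the set of arrays. With the hepatocyte covariate 0 passed, with or without the replicate block. Beside the 5 called in transgenic mice, 3 members passed with 20 group means, 1 and 0 within replicate 1 and 2, 8 with array weights and 8 with the mean of a gene's probe sets. At 7 months 0 passed, 0 with the covariate and 1 with covariate and replicate block. Among wild-type limb muscles 1 passed with scan day as a block, array weights, the random block, or the covariate with the replicate block (Col1a1), and 1 without the 2 arrays of high Gapdh ratio (Col11a1); in transgenic limb 3 passed with array weights and 2 with the random block. For genotype averaged over muscles 6 passed with scan day as a block (Bgn, Col1a1, Col1a2, Col3a1, Col5a2, Timp1), 1 with array weights (Col9a1) and 1 with covariate and replicate block (Col1a2). For genotype in diaphragm 1 passed with array weights and 1 with the mean of probe sets (Col18a1). For age 1 passed within replicate 1 (Timp3), where the ages were scanned on different days. Without 1 array the counts ran from 4 to 7, 0 to 7 and 0 to 1 for wild-type diaphragm, transgenic diaphragm and wild-type limb, and stayed at 0 elsewhere; the limb calls were Col11a1 without the plantaris array of 7 months replicate 2 and Col1a1 without the tibialis anterior array of 10 months replicate 1. The cause was not tested.

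Replicate numbers were shared between groups, and 117 of 120 pairs of groups had deviations correlated above 0.1 (lowest 0.0066), so arrays of 1 number deviated together across nearly all groups. As 3 pairs fell short, the numbers were not taken as pairs, and the fit without the block was kept as planned. With the replicate number as a block 8 members passed in transgenic diaphragm, 1 among wild-type limb muscles (Col1a1) and 4 for genotype averaged over muscles (Col1a2, Col3a1, Col4a1, Col9a1). The combination of the hepatocyte covariate with the block was added after seeing the data.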
